A study of Drosophila melanogaster with 2 samples.

Results

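The odorant, gustatory and ionotropic receptor genes of Drosophila melanogaster encode the proteins with which sensory neurons detect smells and tastes. They were taken as every protein-coding gene of the Ensembl annotation whose symbol is Or, Gr or Ir followed by a number and letters. This gave 179 of 13968 protein-coding genes, with 59 odorant, 60 gustatory and 60 ionotropic receptor genes. Their relation to binding of Apterous, the product of the gene ap, was read from peak lists of a chromatin immunoprecipitation experiment. It used transgenic flies in which an insertion targeting ap makes an Apterous-eGFP fusion, an antibody against GFP, and whole embryos of mixed age, 0 to 24 hours. There was 1 group with 2 libraries, numbered as biological replicates of the same strain, and no untagged or other comparison group was analysed here. Whole embryos mix all tissues, so a site used in a few sensory neurons and a site bound weakly in many cells cannot be told apart.

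Odorant receptors are ion channels of olfactory neurons that work together with the shared co-receptor Orco. Most gustatory receptors sit in taste neurons and respond to sugars or bitter compounds, while a pair of them detects carbon dioxide in the antenna. Ionotropic receptors descend from glutamate receptors and respond to acids, amines, humidity, temperature and tastes, usually together with co-receptors such as Ir25a. As a rule a sensory neuron expresses only a few of these genes, and many of the genes lie in tandem rows of related copies. Apterous is a LIM homeodomain transcription factor known for the dorsal wing compartment, subsets of embryonic neurons and muscle identity, and LIM homeodomain proteins bind AT-rich sequences around TAATTA.

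Receptor genes had few reproducible Apterous peaks, all of them away from their own promoters. In the conservative list, the submitters' stricter set of peaks that recur between replicates by the irreproducible discovery rate (IDR, the expected share of peaks that do not recur), 6 of 179 receptor genes were nearest to a peak summit (3.35%, exact binomial 95% interval 1.24 to 7.15), against 15.8% of all protein-coding genes. By family, the genes were Gr89a, Gr93a, Gr93d and Gr59d among 60 gustatory receptors (6.67%, interval 1.85 to 16.2), Or67c among 59 odorant receptors (1.69%, interval 0.0429 to 9.09) and Ir67b among 60 ionotropic receptors (1.67%, interval 0.0422 to 8.94). These family intervals overlap. No test between the families was run, and no difference between them is drawn from these counts. Intervals cover counting error only and treat genes as independent, which tandem copies are not.

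The DNA under these peaks is shown for Gr89a, Gr93a, Gr93d, Or67c and Ir67b, the genes with the nearest protein-coding start sites. That rule, not the experiment, links each peak to its gene. Each line gives 50 bp on either side of the summit on the + strand of the dm6 build, with TAATTA, which reads the same on both strands, in capitals.
Gr89a (chr3R:16497550-16497650): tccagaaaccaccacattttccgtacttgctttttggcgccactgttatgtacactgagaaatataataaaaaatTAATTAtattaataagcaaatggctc
Gr93a, farther peak (chr3R:21828245-21828345): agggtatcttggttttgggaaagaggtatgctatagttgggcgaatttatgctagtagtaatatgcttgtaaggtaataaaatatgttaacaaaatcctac
Gr93a, nearer peak (chr3R:21829010-21829110): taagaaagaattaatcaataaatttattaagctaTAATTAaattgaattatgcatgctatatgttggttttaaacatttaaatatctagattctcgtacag
Gr93d (chr3R:21850331-21850431): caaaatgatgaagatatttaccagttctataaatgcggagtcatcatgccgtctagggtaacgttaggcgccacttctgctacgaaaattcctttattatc
Or67c (chr3L:10247871-10247971): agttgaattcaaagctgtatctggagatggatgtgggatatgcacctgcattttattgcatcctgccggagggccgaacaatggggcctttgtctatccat
Ir67b (chr3L:10428262-10428362): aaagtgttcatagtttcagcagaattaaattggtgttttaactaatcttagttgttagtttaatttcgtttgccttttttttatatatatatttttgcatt
Among all 9 receptor peaks, 3 held TAATTA within 50 bp of the summit (33.3%), against 362 of 3184 conservative peaks (11.4%). The hexamer began 25 bp after the summit at Gr89a and 16 bp before it at the nearer Gr93a peak. The third was the farther peak of Gr59d, 9 bp after the summit, and the Gr59d windows are not printed. GC content of the same windows was 34.8 ± 9.93% at receptor peaks (SD, n = 9) and 33.0 ± 9.89% over all conservative peaks (SD, n = 3184). With 9 peaks from 6 genes, the difference in the hexamer is described only, and a match is not evidence of binding to it.

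Gustatory receptors held the strongest peaks. Gr89a, expressed broadly in bitter taste neurons, had the strongest receptor peak (chr3R:16497452-16497747), with a pooled signal of 173 and an IDR of 3.36e-05. Signal is the peak caller's own enrichment score, and no source used here gives its scale. Its own signal was 114 in replicate 1, with 62.9 in replicate 2 (88.7 ± 36.4, SD, n = 2), and was in both replicates' own thresholded lists. It ranked 598 of 3184 and was the only receptor peak above the conservative list's median signal of 93.493. The summit lay 1359 bp from the start site in the direction of transcription, beyond the annotated end of this short gene. The next protein-coding start site was that of Cad89D, a cadherin, at 2178 bp. Another conservative peak lay between this summit and Cad89D (chr3R:16496261-16496556, pooled signal 93.868). It was 987 bp from the start of Cad89D, its nearest gene, and 2550 bp from that of Gr89a.

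Gr93a, which is required for the taste of caffeine, had 2 peaks in the intergenic DNA upstream. The farther peak (chr3R:21828147-21828442, 4208 bp upstream) had a pooled signal of 93.459, just under that median, with 52.2 in replicate 1 and 39.7 in replicate 2. The nearer peak (chr3R:21828912-21829207, 3443 bp upstream) had a pooled signal of 76.8, with 38.4 in replicate 1 and 33.5 in replicate 2. Replicate 1 held both in its own thresholded list and replicate 2 the nearer one only. The next start site was that of CASK, 5621 bp from the farther summit. Gr93d, a member of the neighbouring row Gr93b to Gr93d, had 1 peak 3722 bp upstream (chr3R:21850233-21850528) with a pooled signal of 57.6, 30.8 in replicate 1 and 26.6 in replicate 2.

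The odorant and ionotropic peaks were weaker than those of Gr89a and Gr93a and close to that of Gr93d. Or67c had a peak 3215 bp upstream (chr3L:10247773-10248068), in an exon of the long non-coding RNA gene CR44540, with a pooled signal of 58.0, 27.4 in replicate 1 and 26.5 in replicate 2. An overlapping second entry at Or67c had a pooled signal of 13.3 and is the same region, so the 9 entries stand for 8 places. Ir67b had a peak with a pooled signal of 58.4, 25.5 in replicate 1 and 35.4 in replicate 2 (chr3L:10428164-10428459). Its summit was 3671 bp from the start site, beyond the 3′ end of the gene. Neither the Or67c nor the Ir67b peak was in the submitters' less strict set or in a replicate's own thresholded list.

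The fourth gustatory gene, Gr59d on chromosome arm 2R, had 2 peaks at the far end of the range. They lay 8854 and 7970 bp upstream, with pooled signals of 58.7 and 55.8. The farther one had 24.96 in replicate 1 and 30.95 in replicate 2, and lay in an exon of the long non-coding RNA gene CR44782, within 500 bp of its start. The nearer one had 29.3 in replicate 1 and 26.8 in replicate 2. At their strongest peaks Gr89a and Gr93a stood above the other 4 genes in both replicates. The other 4 genes had replicate signals between 24.96 and 35.4, and their ranges overlap.

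Distances and strengths of receptor peaks differed from those of the list as a whole. The 9 summits lay 1359 to 8854 bp from the start site, with a median of 3671 bp, against a median of 1044.5 bp over all 3184 peaks. Of the 9 peaks, 7 were upstream of the start site. Median pooled signal was 58.4 at receptor genes, against 93.5 over the list. In the summit's position, 6 of 9 were intergenic, and the other 3 lay in an exon or within 500 bp of the start of a long non-coding RNA. No protein-coding gene body held a receptor peak.

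The start sites and bodies of the receptor genes held no conservative peak. A summit within 500 bp of the gene's own start site was found at 0 of 179 receptor genes, against 11.8% of all protein-coding genes. The exact binomial 95% interval of the receptor share was 0 to 2.04%. A summit in the gene's own body was found at 0 of 179 receptor genes, against 8.99% of all protein-coding genes. Receptor genes are compact, with a median length of 1691 bp against 2164.5 bp for all protein-coding genes, and the part of gene length in the second count was not tested. Peaks were also counted per length, in DNA farther than 500 bp from any protein-coding start site. In the territory of receptor genes this DNA held 6.50 conservative peaks per Mb, against 15.8 per Mb over the genome. Territory is the DNA nearer to a gene's start sites than to those of any other protein-coding gene. The same rate was 22.7 per Mb for gustatory, 3.34 per Mb for odorant and 1.92 per Mb for ionotropic receptors, from 6, 2 and 1 peaks.

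Other lists gave similarly low counts. In the submitters' less strict set, 6 of 179 receptor genes were nearest to a peak, against 16.4% of all protein-coding genes. The same 4 gustatory genes were joined there by Or67d and Or56a, in place of Or67c and Ir67b. In the thresholded list of replicate 1 alone, 2 of 179 receptor genes had a peak (Gr89a and Gr93a), against 11.0% of all protein-coding genes. In that of replicate 2 alone there were 3 of 179 (Gr89a, Gr93a and Or67d), against 12.2% of all protein-coding genes. Only Gr89a and Gr93a were in all 4 lists. Or67d, the receptor for the male pheromone cis-vaccenyl acetate, had its less strict peak 64669 bp from its start site in an intron of a long non-coding RNA gene, with 37.9 in replicate 2 and 17.5 in replicate 1. Or56a, the receptor for geosmin, had its less strict peak 718 bp upstream, with 36.1 in replicate 1 and 20.4 in replicate 2.

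**Figure D1:**
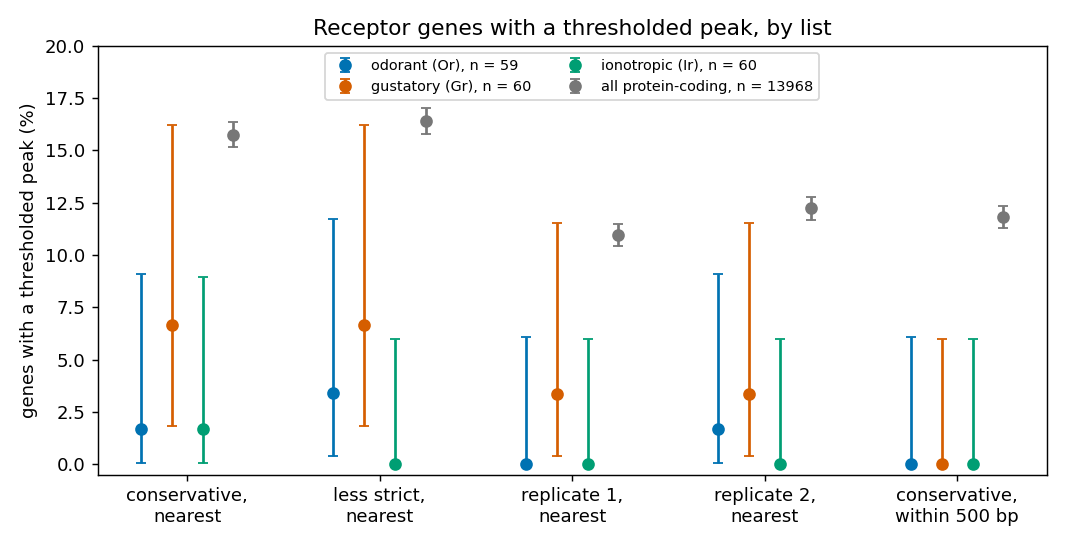
Share of genes with a thresholded peak (vertical axis, percent) for odorant, gustatory and ionotropic receptors and all protein-coding genes in the pooled conservative list, the less strict list, each replicate's own list, and the conservative list counted within 500 bp of the gene's own start site; bars are exact binomial 95% intervals. Each receptor family lies at 6.67% or lower in every list, and all protein-coding genes lie between 11.0% and 16.4%.

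Most conservative peaks near receptor genes were nearest to the start site of a gene that is no receptor. When each gene was given every conservative summit within 5 kb of its start site, 20 receptor genes had one (4 odorant, 8 gustatory and 8 ionotropic; 11.2%), against 30.0% of all protein-coding genes. Of the 27 peaks behind this count, 20 were nearest to a gene that is no receptor, and 13 of those were within 500 bp of that gene's start site. At Ir25a, the broadly used ionotropic co-receptor, the nearby peak with a pooled signal of 754 lay 133 bp from the start of tank and 2566 bp from that of Ir25a. At Or88a the nearest summit was 682 bp from its start, the shortest distance for any receptor gene, and 442 bp from that of CG12402. For 15 of the 20 genes no peak within 5 kb was nearest to a receptor. Over all protein-coding genes, 4185 had a summit within 5 kb and 2201 were nearest to one. Many genes elsewhere thus also lie near a peak that is nearest to another gene, and receptors were not compared with them in this. The examples of Ir25a and Or88a were chosen after their values were seen. Counting any summit inside a gene or up to 2000 bp away, 8 of 179 receptor genes had one, against 24.4% of all protein-coding genes. With start sites of any gene type competing for a summit, 4 of 179 remained, against 14.2% of all protein-coding genes. In the stronger part of the conservative list, split at its median signal, 1 of 179 had a peak (Gr89a), against 9.33% of all protein-coding genes.

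Candidate peaks before thresholding were common around receptor genes, as they were around protein-coding genes in general. The replicates' ranked lists hold every candidate peak before the IDR threshold, 82646 in replicate 1 and 102850 in replicate 2. In replicate 1, 158 of 179 receptor genes were nearest to a ranked peak (88.3%; 55 odorant, 53 gustatory and 50 ionotropic), against 85.9% of all protein-coding genes. In replicate 2, 173 of 179 were (96.6%; 58, 58 and 57), against 83.8% of all protein-coding genes. Receptor territory held 576 ranked peaks per Mb in replicate 1 and 877 per Mb in replicate 2, against 601 and 748 per Mb over the genome. The replicates thus placed the receptor genes on opposite sides of the genome rate. Within 500 bp of the start site, 91 of 179 receptor genes had a ranked peak in replicate 1, against 62.4% of all protein-coding genes. In replicate 2, 126 of 179 did, against 66.1% of all protein-coding genes.

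Receptor genes were scarcest among the strongest candidate peaks. Receptor territory is 1.14% of the genome. Receptor genes took 1.14% of the weakest decile of ranked peaks in replicate 1 (interval 0.920 to 1.39) and 0.629% of the strongest decile (52 of 8264; interval 0.470 to 0.824). In replicate 2 they took 1.33% of the weakest decile (interval 1.12 to 1.57) and 0.749% of the strongest (77 of 10285; interval 0.591 to 0.935). Among the strongest 3184 ranked peaks, as many as the conservative list holds, receptor genes had 7 in replicate 1 (0.220%, interval 0.0884 to 0.452) and 6 in replicate 2 (0.188%, interval 0.0692 to 0.410). In both replicates the interval of the strongest decile lay below the territory share and those of the weakest decile included it. Of the 3184 strongest, gustatory genes held 3 in replicate 1 and 4 in replicate 2, from a territory of 0.328 Mb against 0.660 Mb for odorant and 0.583 Mb for ionotropic receptors.

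**Figure D2:**
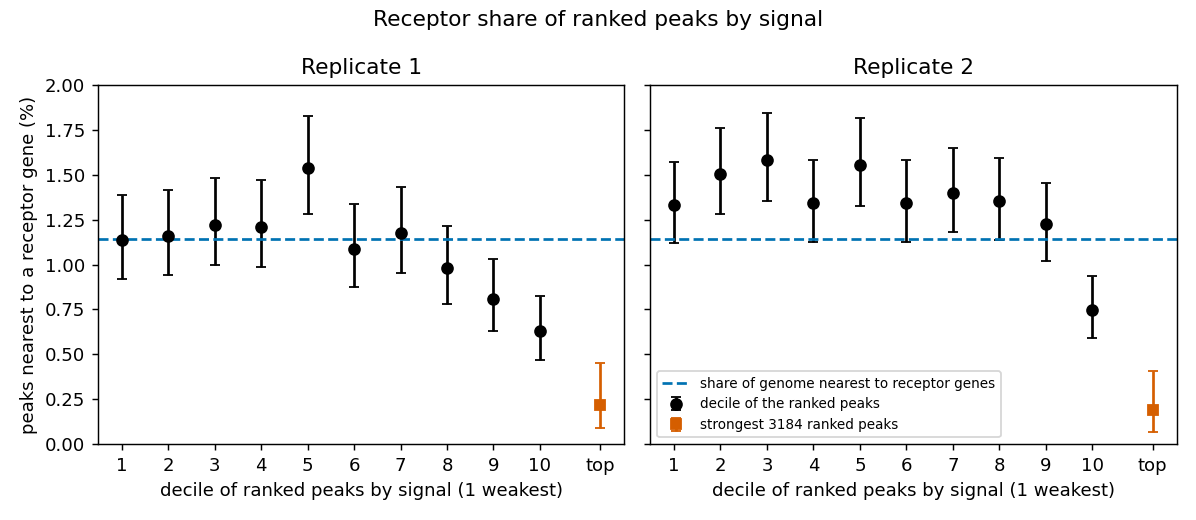
Share of each replicate's ranked peaks that were nearest to a receptor gene (vertical axis, percent) by decile of signal, with 1 the weakest, and among the strongest 3184 peaks (squares, top); bars are exact binomial 95% intervals and the dashed line is the receptor share of the genome, 1.14%. The share of the strongest decile is 0.629% in replicate 1 and 0.749% in replicate 2, below the line in both.

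The highest ranked signal of each gene showed the same order within the genome. Its median over receptor genes was 17.9 in replicate 1 (17.9 odorant, 17.5 gustatory, 18.1 ionotropic) and 16.8 in replicate 2 (18.0, 15.7 and 17.2), against 21.03 and 20.02 over all protein-coding genes with a ranked peak. Family medians differed by less than 1 in replicate 1, and their order was not stable: with summits within 500 bp of the start site, the replicate 1 medians were 12.8 odorant, 14.8 gustatory and 12.4 ionotropic. Of the receptor genes with a ranked peak, 50 (31.6%) in replicate 1 and 57 (32.9%) in replicate 2 were above the genome median. The strongest 10% of genes, with signals from 52.0 upwards (replicate 1) and from 53.8 upwards (replicate 2), held 2 and 1 receptor genes. Median territory per gene was 4.13 kb for receptors (5.11 kb odorant, 3.27 kb gustatory, 5.63 kb ionotropic) and 4.25 kb for all protein-coding genes. The largest territory was 81.3 kb among receptors and 1915 kb among all protein-coding genes. The part of territory size in these signals was not tested.

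**Figure D3:**
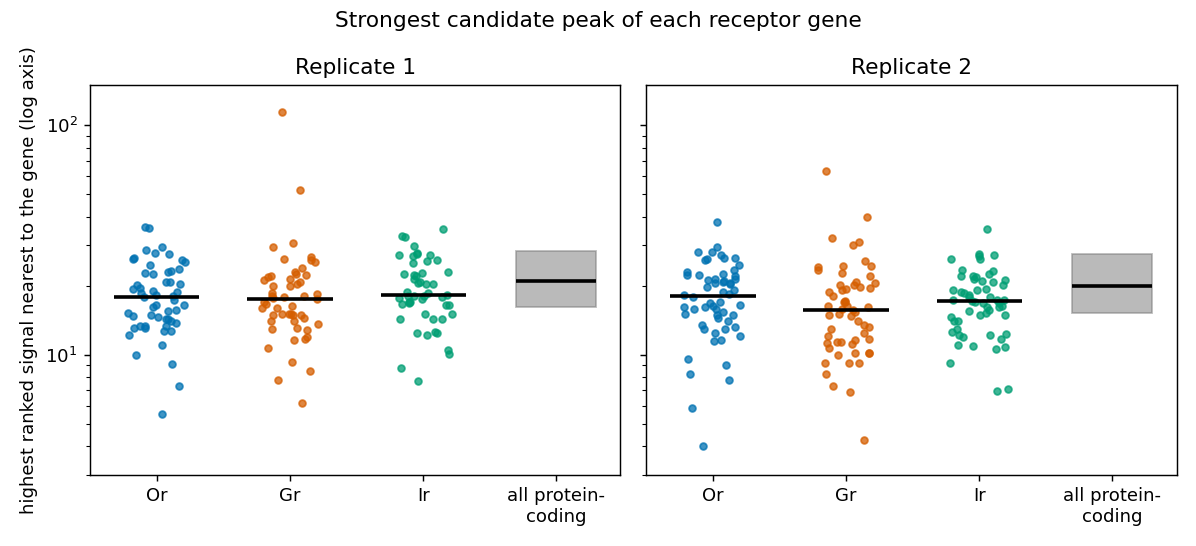
Highest ranked signal nearest to each receptor gene (points, log axis) for odorant (Or), gustatory (Gr) and ionotropic (Ir) receptors in each replicate, with horizontal lines at the medians; the grey box spans the quartiles of all protein-coding genes and its line is their median. Receptor medians lie between 15.7 and 18.1, below the 21.03 and 20.02 of all protein-coding genes, and the highest points are Gr89a and then Gr93a.

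Ranked peaks at receptor promoters were also weak. Within 500 bp of a start site, receptor genes had 107 ranked peaks in replicate 1 with a median signal of 12.5 and a highest of 25.3, against a median of 14.7 and a highest of 730 over the genome. In replicate 2 they had 162 with a median of 10.3 and a highest of 27.3, against a median of 12.7 and a highest of 799 over the genome. The highest values come from unlike numbers of peaks, as the genome had 11703 and 12607 in replicates 1 and 2. Upper quartiles were 16.7 and 13.7 at receptor genes, against 21.0 and 18.8 over the genome. More ranked summits nearest to receptors were intergenic (40.0% and 38.4% in replicates 1 and 2, against 22.4% and 25.5% over the genome) and fewer were in introns (21.7% and 24.8%, against 38.1% and 38.5%). Intron length was not tested as a cause of that difference.

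The spread between replicates at receptor genes was close to that elsewhere by ratio, while their rank correlation was lower. The log2 ratio of the highest ranked signals, replicate 2 over replicate 1, was -0.09 ± 0.56 (SD, n = 155 receptor genes with a ranked peak in both), against -0.05 ± 0.63 over all such protein-coding genes. The replicates were within 2-fold at 142 of the 155 genes (91.6%), against 90.8% of all protein-coding genes. The Spearman correlation between replicates was 0.465 over these receptor genes (0.570 odorant, 0.433 gustatory, 0.321 ionotropic) and 0.621 over all protein-coding genes, a description across genes that share libraries and differ in territory.

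**Figure D4:**
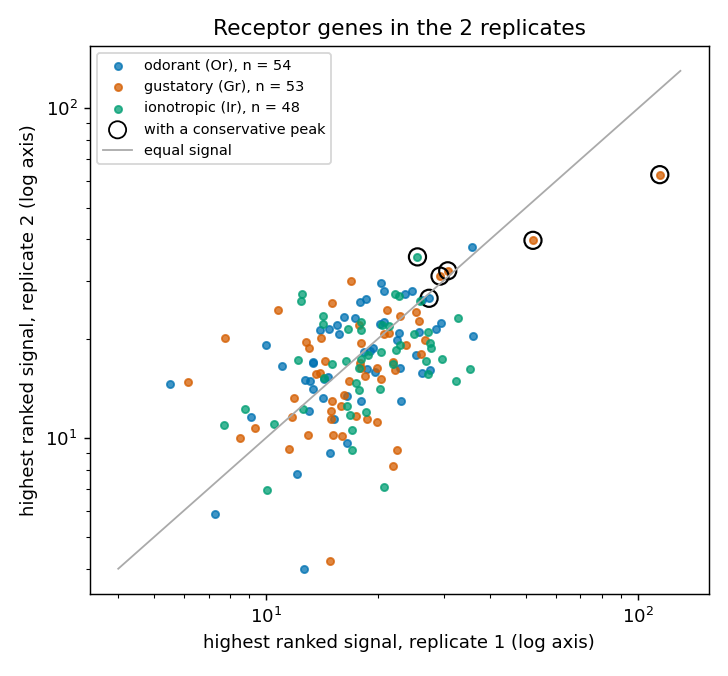
Highest ranked signal of each receptor gene in replicate 1 (horizontal log axis) against replicate 2 (vertical log axis), coloured by family; circles mark the 6 genes with a conservative peak and the line marks equal signal. Gr89a (114 and 62.9) and Gr93a (52.2 and 39.7) have the highest and next highest signals in both replicates.

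Beyond the genes with conservative peaks, the strongest candidates varied in how well the replicates placed them. Among gustatory receptors without a conservative peak, Gr28b, a receptor with roles in temperature and light sensing, had highest ranked signals of 25.3 and 24.1 (24.7 ± 0.841, SD, n = 2), but from summits 1739 bp apart. Gr33a, which is needed for responses to many bitter compounds, had 25.8 and 22.6 (24.2 ± 2.23) at summits only 43 bp apart, 1040 and 997 bp upstream. Its pooled peak had a signal of 49.6 and an IDR of 0.0206, above the highest IDR in the conservative list, 0.00999. Among ionotropic receptors, Ir94h had 32.8 and 23.2 (28.0 ± 6.84) from summits 3364 bp apart. The pooled peak at Ir94h had a signal of 57.3 and an IDR of 0.0144, lower than that of Gr33a and also above 0.00999. Ir56a had 25.9 and 26.1 from summits 17885 bp apart, and Ir56d had 35.3 and 16.1 (25.7 ± 13.5). Among odorant receptors, Or67d had 35.8 and 37.9 (36.9 ± 1.48) from summits 16303 bp apart, Or56a had 36.1 and 20.4 (28.2 ± 11.1) from summits 15 bp apart, and Or43a had 24.7 and 27.9 from summits 9619 bp apart. Gr58a had 16.9 and 30.0 from summits 903 bp apart. Among these genes, chosen for high signals without a conservative peak, close values in the replicates often came from different places. Some have many candidate peaks to choose from: Or67d has 72.9 kb of territory with 55 and 63 ranked peaks. The distance between the replicates' summits was not counted over all genes.

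The Gr33a peak is shown as an example outside the conservative list at which the replicates' highest summits lay close together, again 50 bp on each side of the pooled summit on the + strand of dm6.
Gr33a (chr2L:12136942-12137042): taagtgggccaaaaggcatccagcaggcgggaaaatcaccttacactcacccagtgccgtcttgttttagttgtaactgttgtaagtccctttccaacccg
This window held no TAATTA and had a GC content of 49.5%.

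Receptors grouped by function gave the following counts. No conservative peak was nearest to any of 4 ionotropic co-receptors (Ir8a, Ir25a, Ir76b and Ir93a), 13 other antennal ionotropic receptors, 9 sugar and fructose receptors, the 2 carbon dioxide receptors Gr21a and Gr63a, or 25 odorant receptors of the larva, the stage that follows these embryos. Of 5 widely expressed bitter receptors, 1 had a peak, Gr89a. Over all protein-coding genes the share with a conservative peak was 15.8%, so a count of 0 in a group of 2 to 9 genes says little. Median highest ranked signals of these groups were 17.7 and 16.6 in replicates 1 and 2 for co-receptors, 20.4 and 19.1 for the other antennal ionotropic receptors, 15.9 and 14.4 for sugar and fructose receptors, 18.7 and 15.4 for carbon dioxide receptors, 17.5 and 11.7 for the bitter receptors, and 16.5 and 15.8 for larval odorant receptors. These medians lay below the genome medians of 21.03 and 20.02. Gr28b, the only gene listed as a thermal gustatory receptor, lay above those genome medians at 25.3 and 24.1.

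Peaks were found at both tandem units and single genes. Counting receptor genes at most 5 kb apart as 1 unit gave 128 units, of which 100 were single genes and 28 held 2 to 6 genes (79 genes). Of the 128 units, 6 had a conservative peak (4.69%), 3 of them single genes and 3 tandem units. Tandem units held 9.97 conservative peaks per Mb from 4 peaks, and single genes 4.28 per Mb from 5 peaks. Units of 3 or more genes held 4.18 per Mb from 1 peak, so the higher tandem rate rests on the units of 2 genes. Ranked peaks were at 658 per Mb in tandem units and 548 per Mb at single genes in replicate 1, and at 995 and 836 per Mb in replicate 2. The units of both classes had these rates higher in replicate 2 than in replicate 1.

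The largest unit, the sugar receptor row Gr64a to Gr64f (6 genes in 10.8 kb of chromosome arm 3L), had no conservative peak. It held 9 ranked peaks in replicate 1 and 13 in replicate 2, the strongest at Gr64f with signals of 19.8 and 16.3. Within the row, the highest signals were 8.52 and 9.996 at Gr64a, 18.4 and 15.4 at Gr64c, and 6.17 and 14.8 at Gr64d, with replicate 1 given first. Gr64e had none in replicate 1 and 14.045 in replicate 2, and Gr64b shares its start site with another gene and so could not be assigned a summit. The Gr22e to Gr22a row (5 genes) reached 26.1 in replicate 1 and 18.0 in replicate 2, both at Gr22e. The largest ionotropic unit, Ir7c to Ir7g (5 genes on X), reached 20.5 and 22.04, both at Ir7g, 137 and 149 bp from its start. The largest odorant units held 3 genes: Or33a to Or33c reached 18.3 and 24.6 at different genes, and Or65a to Or65c reached 27.6 and 29.5. Gr10b, Or10a and Gr10a form a unit of 2 families, with 17.9 and 22.02. None of these units had a conservative peak. The Gr93b to Gr93d unit, with the Gr93d peak, reached 30.8 and 32.1.

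**Figure D5:**
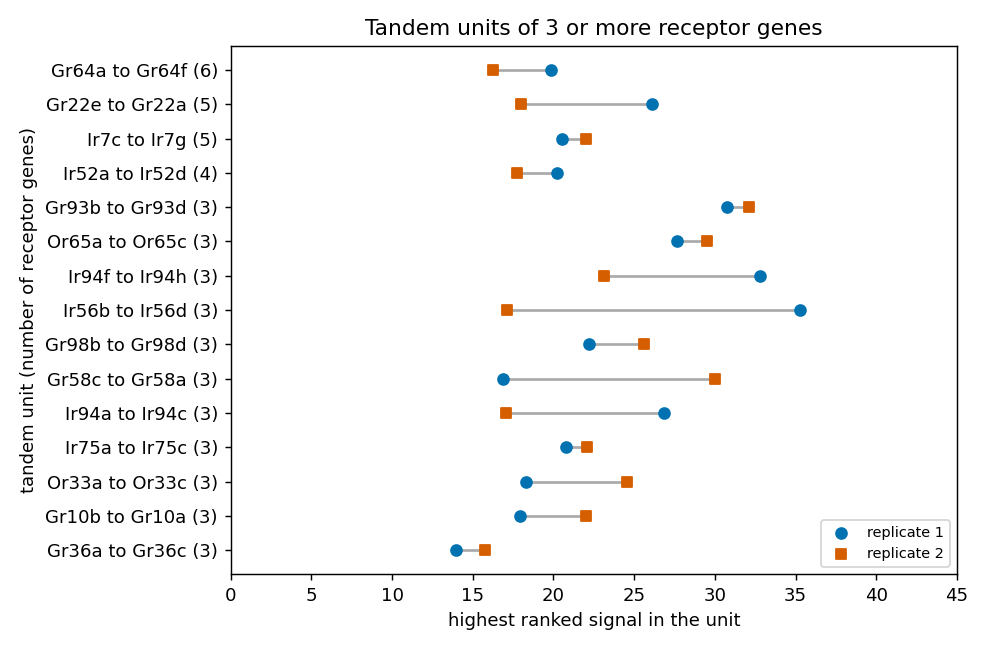
Highest ranked signal (horizontal axis) in each tandem unit of 3 or more receptor genes, with the number of genes in parentheses, for replicate 1 (circles) and replicate 2 (squares); lines join the replicates. All units lie at 35.3 or lower, and the replicates differ most at Ir56b to Ir56d, with 35.3 in replicate 1.

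No ranked peak in either replicate was nearest to 3 of 179 receptor genes, against 1148 of 13968 protein-coding genes. Ir68b was 1 of them, with 1414 bp of territory. Gr64b and Gr10a, the others, share their start sites with another protein-coding gene and have no territory of their own.

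Receptor promoters held TAATTA more often than other promoters. In the window from 250 bp before to 50 bp after the gene's start, 80 of 179 receptor genes had it (44.7%), against 2851 of 13968 protein-coding genes (20.4%). It was present at 35 of 60 gustatory (58.3%), 26 of 59 odorant (44.1%) and 19 of 60 ionotropic receptors (31.7%). Median GC content of the window was 39.3% for receptors and 38.0% for all protein-coding genes. Single genes had it in 42.0% and genes of tandem units in 48.1%, and 62 of 128 units had it in at least 1 gene. The shares with a ranked peak were close with and without the hexamer. Within 500 bp of the start site, 52.5% of receptor genes with it and 49.5% of those without it had a ranked peak in replicate 1, and 68.8% and 71.7% did in replicate 2. A conservative peak was nearest to 2 of the 80 genes with it and 4 of the 99 genes without it.

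Other genes of the chemosensory system were read the same way. Of 6 co-receptor and accessory genes, such as Orco, 0 were nearest to a conservative peak. Of 51 odorant-binding protein genes, 5 were (9.80%): Obp99b (pooled signal 140), Obp56h (99.1), Obp56i (97.6), Obp28a (92.0) and Obp83g (60.6). The Obp99b and Obp83g summits were within 500 bp of the start site, at 247 and 298 bp. Of 16 matched factors of sensory neuron identity and receptor choice, 2 were: Xbp1 (158, 136 bp upstream) and dac (70.9, 542 bp upstream). The shares of binding protein genes (9.80%) and of these factors (12.5%) were between those of receptors (3.35%) and all protein-coding genes (15.8%). That of the co-receptor and accessory genes was 0%. These shares rest on 5, 2 and 0 genes, so no order of the groups is drawn from them.

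Repeated 31-base words were not more frequent in receptor territory than over the assembled chromosomes, which include Y. The word length was not taken from the reads, and tandem rows were not counted apart. The part of repeated sequence in the peak counts was not tested. In their territory, 91.4% of 31-base words occur once on the assembled chromosomes, against 85.5% over the genome, and GC content was 42.1% in both. No source used here says how reads in near-identical copies were placed, so values at single genes of tandem rows are uncertain.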

How the data were processed

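Peak lists on dm6 were used as deposited; no source used here names the aligner or the peak caller. Chromatin was sonicated to 200 to 800 bp, per the labels. In the deposited lists, which have no header and were read by their layout, column 7 holds the peak caller's signal, column 5 a score scaled from the IDR, and, in ranked lists, column 12 the −log10 of the IDR. The authors' conservative (3184 peaks) and less strict (3289) lists pool both replicates, and 1977 and 2210 peaks are in the replicates' own thresholded lists. The lowest score in the conservative list was 830. Read depth is unknown, so intervals cover counting of genes or peaks only. The deposited pooled ranked lists hold 16 further columns for read sets that were not used.

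Summits were assigned to the nearest protein-coding start site (Ensembl, BDGP6.54) in Python 3.11.15 with pandas 2.3.3, scipy 1.17.1 and numpy 2.4.6. Counts are of peaks on the assembled chromosomes; 17 further peaks of the conservative list lay elsewhere and were left out. The assignment was tested on simulated data. No p-values were computed, since there is 1 group and no comparison group. Named genes are those nearest to a thresholded peak, the 3 per family with the highest mean ranked signal and no conservative peak, the largest units, genes with no ranked peak, and pathway genes with a conservative peak. Members, gene lists and rules were chosen with earlier results of these data known.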

Additional observations from a re-analysis of the deposited data

How the results depend on the processing

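Of the alternatives, the receptor gene count of 6 stayed within 1.5 times with the less strict set (6), summits in the gene or within 2000 bp (8) and start sites of any gene type (4). It was 1 with the stronger part of the peaks and 20 with any summit within 5 kb of the start site. In the replicates' own thresholded lists, which leave out 1 replicate each and have their own thresholds, it was 2 to 3, and so were the units with a peak. Odorant genes, 1 in the main list, numbered 2 in the less strict set, 0 in the stronger part, 4 within 5 kb, 3 in or within 2000 bp of the gene, 0 with any gene type and 0 to 1 in the replicates' own lists. Gustatory genes, 4 in the main list, numbered 1 in the stronger part, 8 within 5 kb, 2 in or within 2000 bp of the gene and 2 in each of the replicates' own lists. Ionotropic genes, 1 in the main list, numbered 0 in the less strict set and in the stronger part, 8 within 5 kb, 3 in or within 2000 bp of the gene and 0 in each of the replicates' own lists. Requiring a ranked summit within 500 bp gave 91 receptor genes in replicate 1 in place of 158 (30 odorant, 30 gustatory, 31 ionotropic), and gave median highest signals of 13.2 in replicate 1 and 11.8 in replicate 2. With the stronger part of the ranked peaks only, these medians were 19.0 and 18.1, and the receptor rate over the genome rate was 0.820 in replicate 1 and 1.06 in replicate 2. Each alternative counts a different set of peaks or assigns them by a different rule, and the causes of these shifts were not tested. Units numbered 134 with a gap of 1 kb and 121 with a gap of 20 kb, and 126 with no other gene between, with 6, 5 and 5 holding a conservative peak. No paired analysis was possible because there is 1 group and no comparison group. Counts of 1 to 6 genes limit every comparison between families, and the depth behind the signals is unknown.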

Other observations

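TAATTA ranked first among the AT-only hexamers counted at receptor promoters. Of the 14 hexamers with 3 A and 3 T, counting each together with its reverse complement, it had the highest ratio of receptor share to genome share, 2.19. The next was AATTAT at 1.49 (56.4% of receptor promoters, against 37.9% of all), and AAATTT was lowest at 0.576 (19.6% of receptor promoters, against 33.9% of all). Over the 100 receptor genes outside tandem units the ratio was 2.06 for TAATTA and 1.74 for AATTAT, so the 2 lay closer there. Among promoters with a GC content between 35.3% and 44.3%, the middle range of receptor promoters, 47 of 94 receptor genes held TAATTA (50%), against 1033 of 5606 protein-coding genes (18.4%). No test was run on these shares.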
